A study of Mus musculus with 6 samples.

Results

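The mitochondrial ribosomal protein genes are the nuclear genes for the protein parts of the ribosome inside mitochondria. They were taken as the protein-coding genes whose mouse symbol starts with Mrpl (large subunit) or Mrps (small subunit) and a digit, with at least 1 TPM (a gene's share of all transcripts in a library, corrected for gene length) in at least 3 of the 6 libraries. This gave 78 genes, 49 Mrpl and 29 Mrps, of 57180 identifiers in the deposited table and 11753 genes tested. Every protein-coding Mrpl or Mrps gene met the rule, and each reached 1 TPM in all 6 libraries, so no gene lay just outside it; Mrpl47 (mean 4.65 TPM) and Mrpl1 (5.50 TPM) were the lowest inside. RNA came from primary macrophages grown from bone marrow of wild-type (WT) mice and kept for 5 days in osteoclast-inducing culture, 3 libraries without drug (control 1 to 3) and 3 with Visomitin (Visomitin 1 to 3). Visomitin, also called SkQ1, is a plastoquinone antioxidant joined to a cation that carries it into mitochondria. The sources used here do not give its dose, the age or sex of the mice, or whether each library is a separate mouse or culture. A p-value therefore speaks only to the scatter among these 6 libraries, and that scatter may be technical.

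The mitochondrial ribosome translates the few proteins encoded in mitochondrial DNA, all of them subunits of the respiratory chain or of ATP synthase. Its RNA parts, the 12S and 16S rRNAs, are encoded in mitochondrial DNA (mt-Rnr1 and mt-Rnr2), whereas all its proteins are made in the cytosol from nuclear genes and imported. Many of the proteins have a counterpart in bacterial ribosomes and the others arose in the mitochondrial lineage. Osteoclasts, the fused bone-resorbing cells that macrophages form under the cytokine RANKL, are rich in mitochondria.

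With Visomitin 8 of the 78 genes were lower and 0 were higher: Mrps6, Mrpl12, Mrps28, Mrpl20, Mrps18b, Mrpl46, Mrpl52 and Mrpl51, by 1.30-fold to 1.66-fold on the log2(TPM + 1) scale. A call here is an adjusted p under 0.05 in limma's test on log2(TPM + 1), with Benjamini-Hochberg adjustment over all 11753 tested genes. Among all tested genes 5.03% were called lower and 2.08% higher (7.1% in either direction), against 10.3% lower and 0 higher of the 78. Both subunits took part at like shares, with 5 of 49 Mrpl genes and 3 of 29 Mrps genes lower. Of the 78 genes 69 (88.5%) had a log2 fold change below 0, as did 55.7% of all tested genes. The median log2 fold change was -0.22 over the 78 genes and -0.03 over all tested genes. The count of lower genes was 2 when control 1, control 3 or Visomitin 2 was left out, 3 when control 2 was, and 7 when Visomitin 1 or Visomitin 3 was; such fits have fewer residual degrees of freedom. As shares, 2.56% of the 78 genes were lower without control 1, control 3 or Visomitin 2, beside 2.08%, 2.46% and 2.59% of all tested genes, and 3.85% without control 2, beside 2.81%. In these 4 fits the share was thus near that of all tested genes, at most 1 gene of 78 above it, while it was 8.97% without Visomitin 1 or Visomitin 3, beside 4.77% and 4.76%. The medians stayed below 0 without each library. Markers of cell type moved with the treatment: all 8 osteoclast markers were lower with Visomitin, summing to 11045 to 11997 TPM in control libraries and 2941 to 3541 TPM in Visomitin libraries. The 6 macrophage markers summed to 4330 to 4594 and 3931 to 5155 TPM, with 1 of them, Mertk, called higher. Of these 6 markers 5 had a log2 fold change above 0 and 1 below, with a median of 0.20. In 4 of them all Visomitin libraries lay above all control libraries, and in 1 below. Among all tested genes 11.9% lay above in this way and 18.4% below. None of the 14 osteoclast and macrophage markers was at 0. Bulk RNA cannot tell fewer cells of a type from less RNA per cell, and the part of the osteoclast markers in the result on the 78 genes was not tested.

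For a view of the regulatory sequence beside the members that were called lower, promoters came from a RefSeq table on mouse build GRCm38.p6, which holds 69 of the 78 genes. NRF1 and the ETS factor GABP (also called NRF2) are known as activators of nuclear genes for mitochondrial proteins, and YY1 and E-box factors bind many housekeeping promoters. The window searched ran from 250 bases before to 50 bases after the gene's start, on both strands, for GCGCA, any base and GCGC (NRF1), CCGGAAG (ETS), ATGGCGGC (YY1) and CACGTG (E-box). No motif's letters hold another's. Members and tested genes were counted once if any of their windows matched, whereas the share of all windows counts single windows. The NRF1 letters were in 13 of 69 members (18.8%), against 12.5% of 8630 tested protein-coding genes and 4.603% of all 32851 windows. The ETS letters were in 26 (37.7%, against 22.1% and 8.86%), the YY1 letters in 12 (17.4%, against 6.15% and 2.24%) and the E-box in 5 (7.25%, against 12.1% and 7.15%). Shown here are the 250 bases before the start for Mrps6 and Mrpl12, whose calls held under the most settings, and for Mrpl51, Mrpl52 and Mrpl20, which hold a match. All are on the plus strand and written 5′ to 3′, with the match in capitals: Mrps6 (chr16:92058086-92058335, no match), Mrpl12 (chr11:120484387-120484636, NRF1 on the other strand), Mrpl51 (chr6:125191950-125192199, ETS), Mrpl52 (chr14:54426659-54426908, ETS on the other strand) and Mrpl20 (chr4:155802628-155802877, E-box).
Mrps6: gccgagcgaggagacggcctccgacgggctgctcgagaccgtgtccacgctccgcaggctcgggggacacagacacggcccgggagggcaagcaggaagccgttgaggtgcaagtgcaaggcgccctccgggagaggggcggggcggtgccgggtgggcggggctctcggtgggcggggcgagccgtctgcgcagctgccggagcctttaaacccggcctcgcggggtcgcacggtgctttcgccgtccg
Mrpl12: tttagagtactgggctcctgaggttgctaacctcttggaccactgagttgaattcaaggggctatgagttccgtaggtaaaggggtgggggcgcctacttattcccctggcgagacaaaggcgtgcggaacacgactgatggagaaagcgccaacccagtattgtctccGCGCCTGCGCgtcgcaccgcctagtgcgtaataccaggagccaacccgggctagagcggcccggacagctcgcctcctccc
Mrpl51: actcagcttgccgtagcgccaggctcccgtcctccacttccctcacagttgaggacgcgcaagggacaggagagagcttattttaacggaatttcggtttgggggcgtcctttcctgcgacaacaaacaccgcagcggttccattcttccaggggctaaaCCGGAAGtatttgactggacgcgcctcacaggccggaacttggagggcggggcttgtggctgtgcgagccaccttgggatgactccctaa
Mrpl52: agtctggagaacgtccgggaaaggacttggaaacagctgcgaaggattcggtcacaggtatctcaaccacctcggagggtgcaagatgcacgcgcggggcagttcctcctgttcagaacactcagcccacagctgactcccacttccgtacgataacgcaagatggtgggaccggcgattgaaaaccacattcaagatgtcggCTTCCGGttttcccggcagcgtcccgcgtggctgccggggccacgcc
Mrpl20: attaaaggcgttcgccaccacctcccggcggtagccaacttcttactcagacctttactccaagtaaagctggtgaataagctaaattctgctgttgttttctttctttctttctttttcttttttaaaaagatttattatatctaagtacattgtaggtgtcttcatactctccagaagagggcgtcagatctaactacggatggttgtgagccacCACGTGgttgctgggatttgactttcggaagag
The first base of the match lies 81 bases before the start in Mrpl12, 90 in Mrpl51, 47 in Mrpl52 and 33 in Mrpl20. Mrps18b has an ETS match after the start, and Mrpl46 has no match. Genes with the NRF1 letters had a median log2 fold change of -0.07 and those without -0.23; for the ETS letters the medians were -0.19 and -0.22. A match is a description of letters and says nothing about binding in these cells.

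Of the small subunit, Mrps6 (ENSMUSG00000039680), which encodes the counterpart of a bacterial protein of the subunit's platform, had the lowest p of the 78 genes. It stood at 93.6, 101 and 119 TPM in control 1, 2 and 3 and at 58.8, 64.5 and 63.0 TPM in Visomitin 1, 2 and 3. All Visomitin libraries lay far under all control libraries. The means were 104 ± 12.8 and 62.1 ± 2.98 TPM (SD, n = 3), a log2 fold change of -0.73 (SE 0.10, limma adjusted p = 0.0058). Without each library in turn the adjusted p was 0.0167 to 0.0216, so the call held in all 6 of these fits.

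Mrps28 (ENSMUSG00000040269), a protein of the small subunit, had 34.4, 39.5 and 35.8 TPM in control libraries and 23.9, 21.4 and 26.7 TPM in Visomitin libraries. Its groups did not overlap (log2 fold change -0.59, SE 0.11, limma adjusted p = 0.0187). It missed the threshold when control 1, 2 or 3 or Visomitin 2 was left out, with adjusted p of 0.0209 to 0.0747 over all leave-outs.

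Mrps18b (ENSMUSG00000024436) encodes 1 of 3 relatives of a bacterial small subunit protein, beside Mrps18a and Mrps18c. It had 57.6, 50.5 and 72.2 TPM in control libraries and 36.7, 34.9 and 40.2 TPM in Visomitin libraries. The control libraries were widely spread and still all above the Visomitin libraries (-0.66, SE 0.14, limma adjusted p = 0.0253; called in 2 of 6 leave-outs, those without control 2 or Visomitin 3, range 0.0236 to 0.0932). Its relatives did not pass: Mrps18a was at 86.4 ± 6.23 and 73.1 ± 1.02 TPM (SD, n = 3; limma adjusted p = 0.135), and Mrps18c at 62.6 ± 8.89 and 60.9 ± 9.27 TPM (SD, n = 3; limma adjusted p = 0.888).

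Of the large subunit, Mrpl12 (ENSMUSG00000039640) encodes a protein of the stalk that recruits translation factors, and it has also been found bound to the mitochondrial RNA polymerase. Its level was 111, 109.6 and 124 TPM in control libraries and 68.1, 81.4 and 79.0 TPM in Visomitin libraries. The highest Visomitin library lay under the lowest control library by a wide margin. The log2 fold change was -0.59 (SE 0.10, limma adjusted p = 0.0120), and an exact two-sided permutation of the libraries gave p = 0.1, the smallest that 3 against 3 allow. Without control 1 the limma adjusted p was 0.0507, the highest of the 6 leave-outs (lowest 0.0163).

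Mrpl20 (ENSMUSG00000029066), the counterpart of a bacterial protein that binds the large rRNA early in assembly, had 143, 164 and 168 TPM in control libraries and 117, 107 and 119 TPM in Visomitin libraries. These groups stood clear of each other (-0.47, SE 0.09, limma adjusted p = 0.0226). It missed the threshold when control 2, control 3 or Visomitin 2 was left out, with 0.0329 to 0.0934 over the leave-outs.

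Mrpl52, Mrpl46 and Mrpl51 encode large subunit proteins found in mitochondria and not in bacteria. Mrpl52 (ENSMUSG00000010406), the most abundant Mrpl gene, had 253, 271 and 262 TPM in control libraries and 219, 185 and 199 TPM in Visomitin libraries (-0.38, SE 0.09, limma adjusted p = 0.0346). Mrpl46 (ENSMUSG00000030612) had 23.3, 26.1 and 25.1 TPM in control libraries and 16.3, 16.8 and 18.9 TPM in Visomitin libraries (-0.49, SE 0.10, limma adjusted p = 0.0284). In neither gene did the groups overlap. Mrpl51 (ENSMUSG00000030335) had 54.0, 47.8 and 46.8 TPM in control libraries and 33.3, 32.7 and 40.1 TPM in Visomitin libraries, also without overlap (-0.48, SE 0.11, limma adjusted p = 0.0391). Mrpl46 was called in 2 of 6 leave-outs (without Visomitin 1 or 3, range 0.0351 to 0.11), Mrpl52 in 1 (without Visomitin 1, range 0.0131 to 0.13) and Mrpl51 in 1 (without Visomitin 3, range 0.0279 to 0.139). Mrpl52 also missed the threshold under median-ratio scaling or quantile normalization (up to 0.0933 over the settings that keep all libraries).

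**Figure D1:**
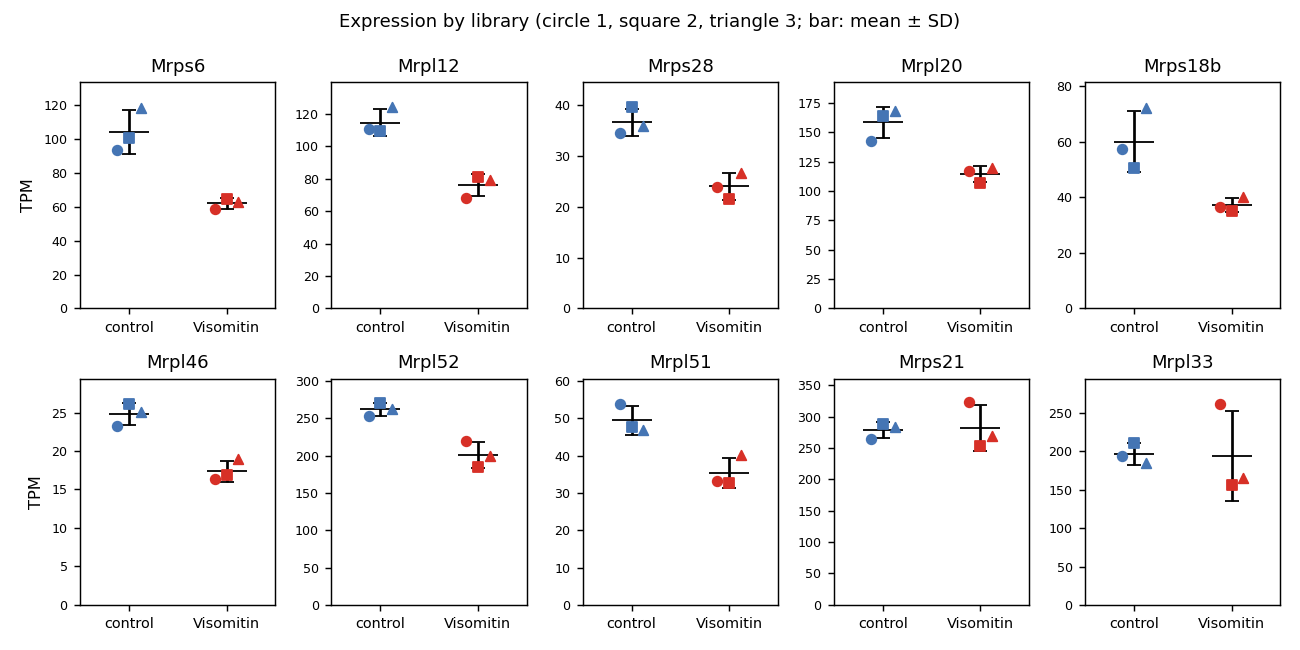
TPM (linear axis from 0) of the 8 genes called lower and of Mrps21 and Mrpl33 in each library; circles, squares and triangles are libraries 1, 2 and 3 and bars are mean ± SD (n = 3 per group). The 8 called genes have no overlap between groups, whereas in Mrps21 and Mrpl33 Visomitin 1 lies above every other library.

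Next in order of p were Mrpl16, Mrpl41, Mrps35 and Mrpl36, which did not pass (limma adjusted p of 0.052, 0.061, 0.067 and 0.080). Mrpl16, the counterpart of a bacterial protein near the site where transfer RNA binds, had means of 44.6 ± 1.39 and 34.1 ± 3.08 TPM (SD, n = 3) and a difference of -0.38 (log2). Mrpl41 was at 48.6 ± 4.01 and 32.9 ± 6.60 TPM, Mrps35 at 13.0 ± 1.30 and 9.11 ± 1.08 TPM, and Mrpl36 at 55.7 ± 3.23 and 44.0 ± 3.86 TPM (SD, n = 3). In each of these 4 genes all Visomitin libraries lay under all control libraries. Over the 78 genes the group ranges did not overlap in 36 genes with Visomitin below (22 Mrpl and 14 Mrps), or 46.2%, against 18.4% of all tested genes. Visomitin lay above control without overlap in 1 gene, Mrpl24 (77.2 to 78.8 TPM in control libraries and 82.5 to 90.5 TPM with Visomitin; limma adjusted p = 0.36), against 11.9% of all tested genes. Unadjusted p-values under 0.05 numbered 34, all below 0 (43.6%, against 15.2% of all tested genes), and none above 0 (against 9.12%).

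The 3 most abundant Mrps genes were not called. Mrps21, the counterpart of a small bacterial ribosomal protein, had 264, 288 and 283 TPM in control libraries and 324, 253 and 269 TPM in Visomitin libraries. Visomitin 1 was the highest and Visomitin 2 the lowest of the 6 libraries, and the log2 fold change was 0.01 (-0.09 without Visomitin 1, -0.03 without control 1 and -0.10 with weights per library). Mrps23 was at 209 ± 24.0 and 182 ± 37.7 TPM and Mrps17 at 91.2 ± 7.01 and 78.0 ± 4.98 TPM (SD, n = 3; limma adjusted p of 0.431 and 0.189). Mrpl33, with Mrpl52 and Mrpl20 among the 3 most abundant Mrpl genes, had 194, 212 and 185 TPM in control libraries and 262, 157 and 165 TPM in Visomitin libraries. Here too Visomitin 1 was highest, and the sign of its log2 fold change (-0.05) depended on the libraries and settings used.

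Among members with a particular place or role, Mrps12, the counterpart of the bacterial decoding-centre protein, was at 64.8 ± 2.39 and 59.4 ± 4.69 TPM (SD, n = 3; limma adjusted p = 0.444; exact permutation p = 0.2). Mrpl58, a peptidyl-tRNA hydrolase built into the large subunit, was at 45.5, 29.6 and 42.8 TPM in control libraries and 30.3, 47.1 and 54.0 TPM in Visomitin libraries. Its groups overlapped widely (log2 fold change 0.14, limma adjusted p = 0.761; -0.05 without control 2 and -0.03 without Visomitin 3). Mrps30 carries a small subunit symbol but sits in the large subunit, as does Mrps18a; it was at 12.5 ± 0.652 and 11.4 ± 1.79 TPM (SD, n = 3; limma adjusted p = 0.579). Mrps36, now known as a part of the oxoglutarate dehydrogenase complex, was at 79.9 ± 6.79 and 69.5 ± 3.82 TPM (SD, n = 3; limma adjusted p = 0.243). At the low end Mrpl47 was at 5.88 ± 2.36 and 3.41 ± 1.01 TPM and Mrpl1 at 5.86 ± 1.36 and 5.14 ± 0.137 TPM (SD, n = 3), both with overlapping groups.

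**Figure D2:**
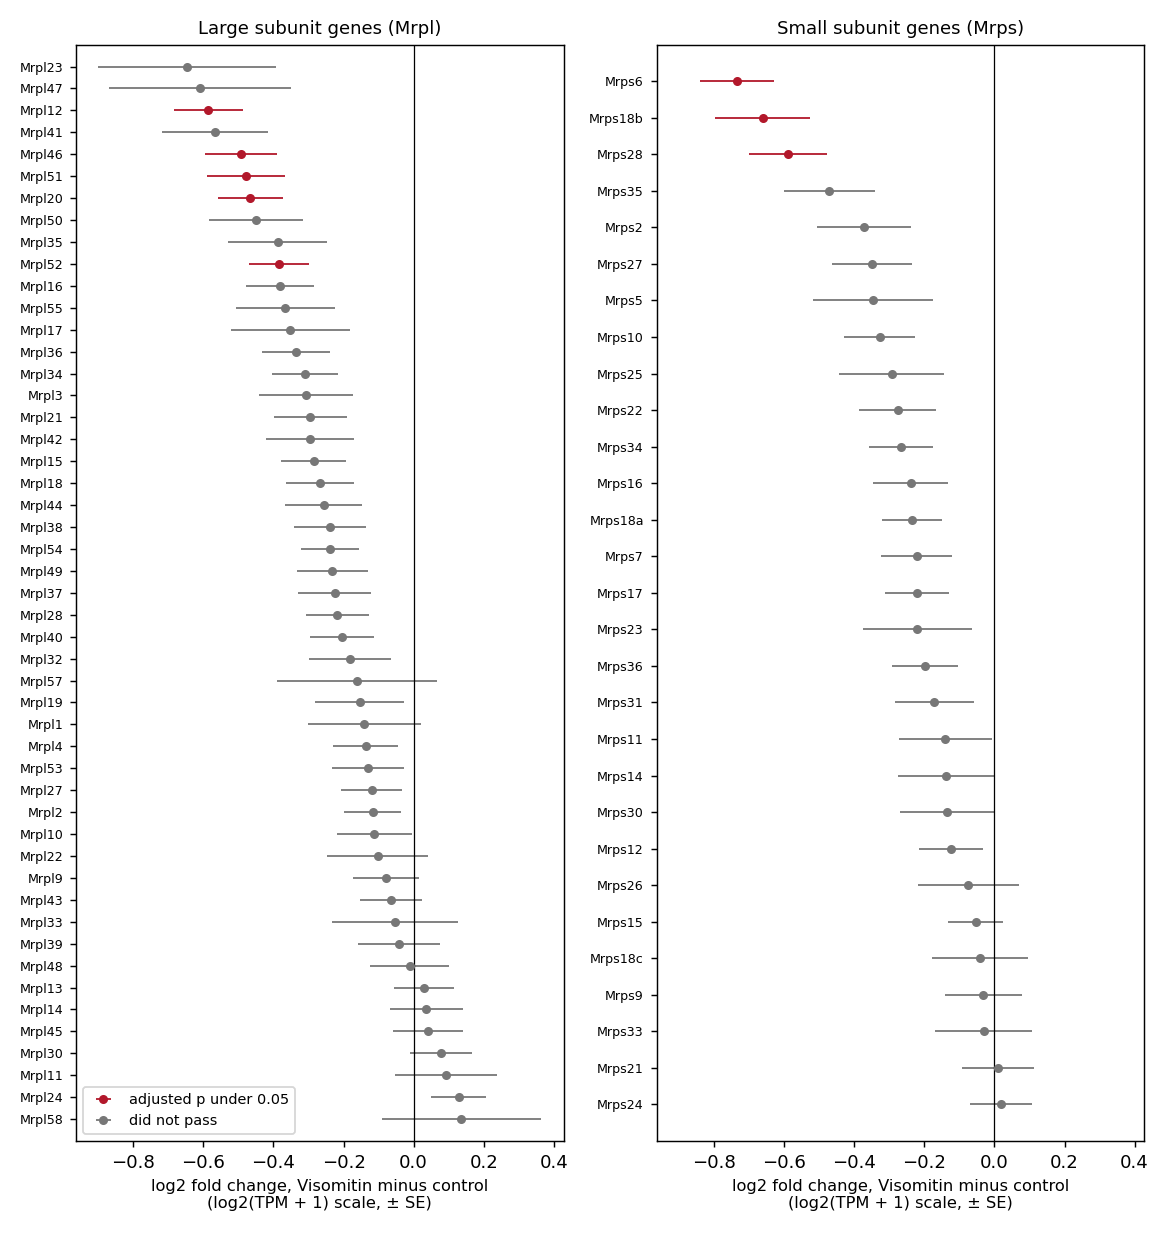
Log2 fold change (Visomitin minus control, on the log2(TPM + 1) scale) of each of the 49 Mrpl and 29 Mrps genes, sorted; points are estimates, lines ± SE, and red marks limma adjusted p under 0.05. In all, 69 of the 78 points lie below 0, from -0.73 for Mrps6 to 0.14 for Mrpl58.

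Large and small subunit genes differed from control by sizes closer together than the spread between libraries. The median log2 fold change was -0.23 over the Mrpl genes and -0.22 over the Mrps genes, apart by -0.0047. A like difference, between the medians within each library measured against the control mean, varied between libraries of a group by 0.013 (SD). That SD describes the scatter of libraries and is not a standard error of the -0.0047. With 1 library left out the difference between the median log2 fold changes ran from -0.044 (without Visomitin 1) to 0.017 (without control 3). Summed Mrpl level was 2811, 2986 and 3020.0 TPM in control libraries and 2615, 2410 and 2573 TPM in Visomitin libraries. Summed Mrps level was 1598, 1737 and 1733 TPM in control libraries and 1540.3, 1387 and 1489 TPM in Visomitin libraries. In both sums every Visomitin library lay under every control library, and the mean was lower by 13.8% for Mrpl (2939 ± 112 and 2533 ± 109 TPM) and by 12.9% for Mrps (1689 ± 79.4 and 1472 ± 78.2 TPM; SD, n = 3). The ratio of the sums was 1.76, 1.72 and 1.74 in control and 1.70, 1.74 and 1.73 with Visomitin, with overlapping groups. Counting Mrps30 and Mrps18a with the large subunit and leaving out Mrps36 gave 5 of 51 and 3 of 26 genes lower. The sums rest on the abundant genes, and since values are TPM they are shares of each library and not amounts per cell.

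The libraries did not differ from control to the same degree. Measured against the control mean, the median gene of the 78 was at -0.26 (log2) in Visomitin 1, -0.25 in Visomitin 2 and -0.15 in Visomitin 3, whereas the median of all tested genes was at -0.14, -0.01 and 0.03. Visomitin 1 thus had the smallest distance between the 78 genes and all genes, and it also stood apart from the other 2 Visomitin libraries on the second principal component of all genes (25.1 against -17.2 and -16.8). Of the 78 genes 35 had their lowest value in Visomitin 2 and 26 in Visomitin 1, and 35 had their highest value in control 3 and 23 in control 2. Between replicates the median coefficient of variation of the 78 genes was 7.66% in control and 8.74% with Visomitin. Without Visomitin 1 the count of lower genes was 7, with 73 of 78 below 0 and a median of -0.21, beside a median of 0.01 for all tested genes.

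By origin, 44 of the proteins have a bacterial counterpart and 29 were acquired in mitochondria, by a table drawn up from textbook knowledge that left 5 unassigned. Genes with a bacterial counterpart had a median of -0.17, and 3 of 44 were lower, or 6.82% (Mrps6, Mrpl12 and Mrpl20). Those acquired in mitochondria had a median of -0.23, and 3 of 29 were lower, or 10.3% (Mrpl46, Mrpl52 and Mrpl51). Among all tested genes 5.03% were lower, so by calls alone the share for bacterial counterparts was near that of all genes. However, 84.1% of these 44 genes had a log2 fold change below 0, against 55.7% of all tested genes. At an unadjusted limma p under 0.05, 17 of the 44 were lower and 0 higher, against 15.2% and 9.12% of all tested genes. Of the 29 acquired in mitochondria 93.1% were below 0, and 13 were lower and 0 higher at that p. The 10 acquired Mrps genes, which include Mrps30 of the large subunit, all had log2 fold changes below 0, as did 55.7% of all tested genes. None of the 10 was called. Across the 78 genes Spearman's rho of log2 fold change was -0.08 with transcript length, -0.06 with GC content and 0.16 with level, given as a description over genes that share the same 6 libraries.

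The 2 rRNAs of the same ribosome went the other way from its protein genes. mt-Rnr2, the large subunit rRNA, had 97.3, 89.0 and 76.3 TPM in control libraries and 211, 176 and 163 TPM in Visomitin libraries. Every Visomitin library lay well above every control library (log2 fold change 1.06, SE 0.12, limma adjusted p = 0.0024, called in all 6 leave-outs). mt-Rnr1, the small subunit rRNA, had 164, 155 and 138 TPM in control libraries and 294, 220.1 and 222 TPM in Visomitin libraries, again with no overlap (0.67, SE 0.13, limma adjusted p = 0.0189). It missed the threshold when any 1 of the controls was left out (adjusted p of 0.0180 to 0.0726 over the leave-outs). Of the 13 protein-coding mitochondrial genes none was called, with mt-Nd5 at 727 ± 28.9 and 599 ± 73.8 TPM and mt-Nd6 at 773 ± 14.8 and 603 ± 125 TPM (SD, n = 3; limma adjusted p of 0.124 and 0.126); at an unadjusted p under 0.05, 2 were lower and 1 was higher. Without Visomitin 1 mt-Nd5 and mt-Nd6 were called lower (0.024 and 0.0031, the lowest of leave-outs that reached 0.288 and 0.321). Without Visomitin 2 mt-Co2, a subunit of cytochrome c oxidase, was called higher (log2 fold change 1.56, limma adjusted p = 0.037, the lowest of leave-outs that reached 0.604); with all libraries it had 45.9 ± 19.3 and 99.9 ± 62.9 TPM (SD, n = 3), 0.93 and 0.308. The log2 fold changes of the 13 ran from -2.12 for mt-Co3 to 1.30 for mt-Atp6 (limma adjusted p of 0.515 and 0.163), so they did not share a direction. Over the leave-outs mt-Co3 changed sign (-3.89 to 0.34), while mt-Nd5 and mt-Nd6 stayed below 0 and mt-Atp6 above 0 (0.62 to 1.72). The library kit named in the labels selects messenger RNA, so the rRNA values count only what passed that selection, and its part in the result was not tested. No annotated nuclear transcript shared more than 2.71% of the 31-base words of either rRNA. Copies in the genome outside annotated transcripts were not searched for.

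**Figure D3:**
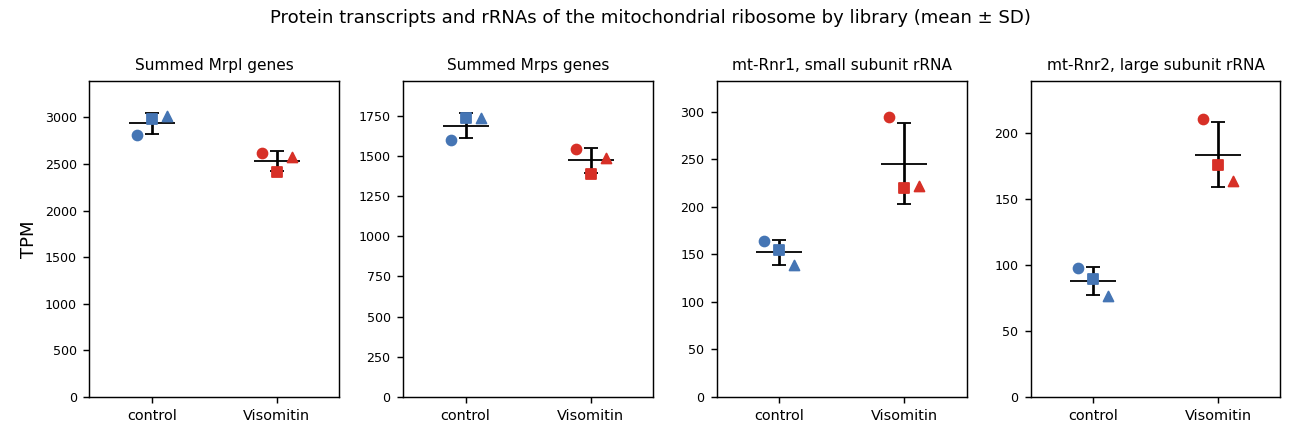
Summed TPM of the Mrpl genes and of the Mrps genes and TPM of mt-Rnr1 and mt-Rnr2 in each library (linear axes from 0; circles, squares and triangles are libraries 1, 2 and 3, bars mean ± SD, n = 3). Both sums are lower in every Visomitin library and both rRNAs higher, with no overlap between groups in any of the 4.

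Genes that work with the mitochondrial ribosome were read from lists. Of 5 of its proteins with other symbols 1 was lower, Ptcd3 (15.4 ± 1.60 and 10.7 ± 0.789 TPM; SD, n = 3; log2 fold change -0.49, limma adjusted p = 0.046), a small subunit protein that binds RNA; the call was lost without each library in turn (0.0613 to 0.162). Dap3, Chchd1 and Gadd45gip1 did not pass. The list of 21 translation factors also holds other genes, such as Letm1. Of these 21 genes 4 were lower (19.0%, beside 5.03% of all tested genes) and 0 higher. Their median was -0.08 (unadjusted p under 0.05: 5 lower, 0 higher). Mrrf, which releases the ribosome from messenger RNA after termination, had 12.6, 13.7 and 14.1 TPM in control libraries and 6.78, 8.43 and 7.71 TPM in Visomitin libraries. These groups were far apart (-0.75, SE 0.12, limma adjusted p = 0.0104, called in all 6 leave-outs). Tufm, the elongation factor that brings transfer RNA to the ribosome, had means of 128 ± 7.85 and 95.4 ± 7.35 TPM (SD, n = 3; -0.42, limma adjusted p = 0.0307). Gfm1, the elongation factor for translocation (-0.67, limma adjusted p = 0.0346), and Letm1, an inner membrane protein that associates with the ribosome (-0.59, limma adjusted p = 0.0391), were also called. The calls of Tufm, Gfm1 and Letm1 held in 2, 1 and 2 of 6 leave-outs, with limma adjusted p up to 0.114, 0.115 and 0.108. The list's count in the leave-outs was 1 to 3 (4.76% to 14.3%, beside 2.08% to 4.77% of all tested genes).

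None of 31 assembly factors and rRNA enzymes was called (median -0.09; unadjusted 7 lower, 0 higher), nor any of 19 genes for mitochondrial transcription and RNA stability (median -0.27; unadjusted 8 lower, 0 higher) or of 19 aminoacyl-tRNA synthetases of mitochondria (median -0.17; unadjusted 4 lower, 0 higher). The lowest p among assembly factors was that of Afg3l2, the protease that matures Mrpl32 (48.3 ± 0.970 and 35.8 ± 5.58 TPM; SD, n = 3; limma adjusted p = 0.068). Of 10 regulators of nuclear genes for mitochondria 2 were lower (20%, beside 5.03% of all tested genes). They were the coactivators Ppargc1b (16.2 ± 1.35 and 7.44 ± 1.52 TPM, limma adjusted p = 0.0059) and Pprc1 (17.5 ± 2.15 and 9.97 ± 3.0 TPM, SD, n = 3, limma adjusted p = 0.048). Without Visomitin 3 the call of Pprc1 held and without each other library it was lost (limma adjusted p of 0.0131 to 0.149). Of 75 nuclear genes of the respiratory chain and ATP synthase 18 were lower and 0 higher, or 24% lower beside 5.03% of all tested genes. Their median was -0.26 beside the -0.22 of the mitochondrial ribosomal protein genes. The count ran from 4 without control 2 (5.33%, beside 2.81% of all tested genes) to 36 without Visomitin 1 (48%, beside 4.77%). Proteins of the cytosolic ribosome, 82 genes, had 0 lower and 0 higher by limma (unadjusted 0 and 31), with a median of 0.20 and 77 of 82 above 0. Once length and GC content of transcripts were corrected for, 30 of them were higher, against 0 of the 78 mitochondrial ones. Of all 11554 genes in that fit 873 were higher, and that setting called the most of the 82 genes higher. With weights per library 19 were higher, beside 1263 of all tested genes, and under the other settings 0 to 5 were. Summed, the 82 genes stood at 111018 to 112053 TPM in control libraries and at 144648, 121785 and 120537 TPM in Visomitin 1, 2 and 3, so Visomitin 1 was highest there. Yars2 was counted both with the 31 assembly factors and rRNA enzymes and with the 19 synthetases. Whether any list differs from the 78 genes was not tested.

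**Figure D4:**
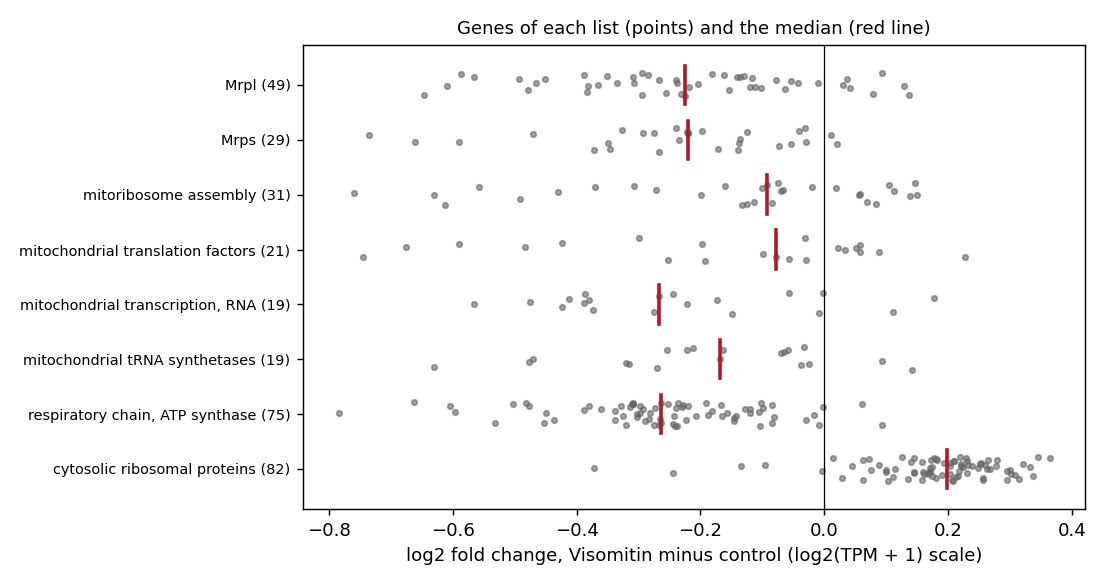
Log2 fold change (Visomitin minus control, log2(TPM + 1) scale) of each tested gene in 8 lists, with the number of genes in brackets; points are genes, jittered vertically, and the red line is the list's median. The medians of the Mrpl (-0.23) and Mrps (-0.22) genes lie near that of the respiratory chain genes (-0.26), and that of the cytosolic ribosomal proteins is 0.20.

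Markers of other cell types ranged from absent to clearly present. Summed markers of neutrophils were 11.6 to 19.5 and 8.82 to 15.3 TPM, of B cells at most 1.65 TPM, of T cells at most 13.6 TPM and of erythroid cells at most 0.3 TPM, with 4 of 6, 3 of 5, 2 of 5 and 4 of 5 at 0 in every library. Stromal markers summed to 108 to 315 and 76.6 to 163 TPM (1 of 6 at 0), and dendritic markers to 24.4 to 30.3 and 8.14 to 11.9 TPM (none of 5 at 0). Of all tested genes 591 were lower and 244 higher. Median-ratio scaling gave 689 and 481, and quantile normalization 651 and 559, with 9 of the 78 genes lower and 0 higher under both.

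The value of Mrpl23 is uncertain because of a copy elsewhere in the genome, and other members share bases with overlapping genes. Mrpl23 (ENSMUSG00000037772) was at only 7.38 ± 1.14 and 4.55 ± 1.95 TPM (SD, n = 3), and its processed pseudogene Mrpl23-ps1, left out of the 78 genes, at 119 to 151 TPM. An alignment of the annotated transcripts had 540 bases with 0 differences, which hold all 438 coding bases of Mrpl23. The first 90 coding bases are shown because both genes carry the same letters there.
Mrpl23 and Mrpl23-ps1: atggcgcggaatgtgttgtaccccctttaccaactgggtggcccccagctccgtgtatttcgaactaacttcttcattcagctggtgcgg
Together they stood at 146 ± 10.7 TPM in control libraries and 134 ± 10.7 TPM in Visomitin libraries (SD, n = 3). The other 4 Mrpl and Mrps pseudogenes were listed at 0 in all libraries. Of called genes, Mrps6 shares 8.59% of its 31-base words with Slc5a3 (2.43 to 4.52 TPM) and 18.4% with Gm49711 (0 to 0.09 TPM), both on the same strand. Mrpl12 has 13.1% of its exon bases overlapped on the other strand by Gm16755, which has no deposited value. Mrpl46 has 12.2% overlapped by Mrps11 on the other strand, and Mrps18b has 30.5% overlapped by the antisense gene Gm16279 (0.08 to 0.38 TPM). Annotated pseudogene copies of Mrpl12, Mrps18b and Mrpl51 were listed at 0. Of genes not called, Mrpl53 shares 84.4% of its 31-base words with Gm42688, which has no deposited value. Mrps34 shares 35.6% with Nme3 (23.6 to 31.2 TPM) and Mrps24 13.2% with Urgcp (17.6 to 24.4 TPM), all on the same strand. Expressed genes on the other strand also overlap exon bases of genes not called, and not all are named here. Nr2c2 (6.13 to 9.93 TPM) overlaps 69.8% of Mrps25, and Mapk8ip3 (20.65 to 28.06 TPM) 63.4% of Mrps34. Ndufb5 (108 to 139 TPM) overlaps 13.9% of Mrpl47, the lowest member in level. The sources used here do not say whether the authors' counting used strand, so reads of overlapping genes cannot be told apart.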

How the data were processed

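RNA was sequenced from 6 libraries, 3 per group; per the labels' protocols it was extracted with TRIzol and made into stranded mRNA libraries. The deposited values are TPM per gene, computed by the authors; the submitters' processing notes name fastp, HISAT2 and StringTie, while versions, build, annotation and counting program are not given there. TPM keep no depth, so depth is unknown, and the precision given here comes from the scatter between libraries and from their number. Symbols came from reference tables (51884 identifiers matched). Values were used as deposited, as log2(TPM + 1), for the 11753 genes at 1 TPM or more in 3 or more libraries. The test was limma 3.58.1 under R 4.3.3 (statmod 1.5.0), with a trended eBayes and no term but group, two-sided and Benjamini-Hochberg adjusted; the script was tested on simulated data. Alternatives were other pseudocounts (0.1 and 5), filters, scalings, weights, a library number block, a length and GC correction and leaving out each library; protein-coding genes only was chosen after seeing the data.

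The members and lists were chosen with earlier results of these data known. Members were named by rule: those that passed, the lowest p up to 12, the 3 most abundant of each subunit, Mrpl12, Mrps12, Mrpl58, Mrps30, Mrps18a and Mrps36, and the lowest 2 in level; of each other list up to 4 with the lowest p. Mrpl24, Mrpl23, Mrpl53, Mrps18c, Mrps24, Mrps25, Mrps34, Mertk, mt-Co2, mt-Co3, mt-Atp6 and overlapping genes were named after their values were seen.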

Additional observations from a re-analysis of the deposited data

How the results depend on the processing

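The count of lower genes among the 78 was 8 as reported, 2 with no filter on low values (1 Mrpl and 1 Mrps), 5 with no trend (2 Mrpl), 30 with weights per library (20 Mrpl and 10 Mrps), where Visomitin 2 had a weight of 4.16 and Visomitin 1 of 0.257, and 11 with the length and GC correction (8 Mrpl). It was 8 to 10 under the pseudocounts, the 5 TPM filter, both scalings, protein-coding genes only and without mitochondrially encoded genes, and 2 to 7 (Mrpl 1 to 4, Mrps 1 to 3) when a library was left out. As shares, 2.56% of the 78 genes were lower with no filter, beside 1.38% of all tested genes, and 6.41% with no trend, beside 3.93%. The shares were 38.5% beside 13.4% with weights and 14.1% beside 7.5% with the length and GC correction. In the settings with 8 to 10 they were 10.3% to 12.8%, beside 4.85% to 6.32% of all tested genes. No setting called any of the 78 genes higher. Of all tested genes 308 were lower and 73 higher with no filter and 1572 and 1263 with weights. With no trend 462 were lower and 168 higher. The higher genes numbered 481 with median-ratio scaling, 559 with quantile normalization and 873 with the length and GC correction, where 866 were lower. Without 1 library 244 to 561 were lower and 64 to 420 higher. The median log2 fold change of the Mrpl genes was -0.17 with quantile normalization and with the length and GC correction (-0.23 as reported). In these fits the median of all tested genes also moved up, to 0.02 and 0.03 (-0.03 as reported). The difference of the Mrpl median from that of the Mrps genes was -0.044 to 0.017 when a library was left out. The cause of these differences was not tested, other than that leave-out fits have fewer libraries.

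Signs turned for genes near 0. Mrps21 (0.01 as reported) was at -0.10 with weights, and at -0.092 (without Visomitin 1) to 0.085 over the leave-outs. Mrpl33 (-0.05) was at 0.0025 with the length and GC correction, and at -0.29 to 0.081 over the leave-outs, above 0 when control 2, Visomitin 2 or Visomitin 3 was left out. Mrpl1 (-0.14) ranged from -0.25 to 0.016 (without control 1), and Mrpl58 (0.14) from -0.051 (without control 2) to 0.37. Mrps6 and Mrpl12 were called in all 12 settings that keep the 6 libraries, Mrps28, Mrps18b and Mrpl46 in 11 (not with no filter), Mrpl20 and Mrpl51 in 10 (not with no filter or no trend) and Mrpl52 in 8 (nor after either scaling).

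Libraries share numbers across groups, and residuals of the same number correlated at 0.05, 0.02 and 0.17, so the numbers were not taken to pair them. With the replicate block 9 of the 78 genes were lower (6 Mrpl and 3 Mrps) and 0 higher, beside 799 lower and 308 higher of all tested genes; not every library correlated best with its own number.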
